A study of Homo sapiens with 6 samples.

Results

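The zinc finger clusters of chromosome 19 were taken as 2 areas of hg19, from 19800001 to 24300000 (the short arm cluster, 4.5 Mb) and from 51500001 to 59128983 (the long arm cluster, 7.63 Mb). They were set against the rest of the chromosome outside the centromere, from 1 to 19800000 (the short arm stretch, 19.8 Mb) and from 27700001 to 51500000 (the long arm stretch, 23.8 Mb). Members were MYC peaks of chromosome 19 whose summit, the position of highest signal, lay in a cluster. They numbered 205 of 24899 peaks in replicate 1, 147 of 16809 in replicate 2 and 141 of 17298 in replicate 3. Joining the peaks of different replicates wherever they shared 1 bp or more turned the lists into places, of which 219 of 27801 lay in the clusters.

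The cells were ONS76, a human cell line established from a medulloblastoma, and the assay was ChIP-seq, which sequences the DNA recovered with an antibody from cross-linked chromatin. The MYC group, made with antibody Y69, and the normal IgG group had 3 libraries each, and all of them came from this line. The labels give the engineered genotype of every library as Inducible SOX2, whereas the methods for this assay name ONS76 without it, so whether the cells carried the construct is not settled here. The authors state that no ChIP-seq was made with SOX2 elevated. Each MYC library had a peak list of its own, and the IgG libraries were not analysed here. The methods describe several immunoprecipitations of a single chromatin batch that were pooled, and no source used here says whether the replicates were separate cultures, so the spread between them may be technical.

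Zinc finger proteins of the Krüppel-associated box (KRAB) family are DNA-binding repressors that recruit the corepressor TRIM28. Many of them silence transposable elements. Their genes arose by tandem duplication and lie side by side in clusters, the best known of which are on chromosome 19. MYC binds DNA as a dimer with MAX, with a preference for E-boxes, and in growing cells it occupies a large share of active promoters. The genome and annotation used here are of hg38. The lists hold 23, 23 and 22 chromosome 19 peaks past the end of that sequence at 58617616, so no gene was assigned to a place and the gene content of the areas was not checked. The long arm area is also known to hold immune receptor genes, and zinc finger genes are known to occur in both stretches. The areas are therefore called by their arm.

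The first comparison asked how densely MYC peaks lay in the clusters. The short arm cluster was sparse and the long arm cluster was not. Replicates 1, 2 and 3 had 44, 22 and 19 peaks in the short arm cluster, or 9.78, 4.89 and 4.22 peaks per Mb. In the long arm cluster there were 161, 125 and 122 peaks, or 21.1, 16.4 and 15.99 per Mb. The ranges of the 2 clusters did not overlap, and in each replicate the short arm cluster was the sparser one.

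The short arm stretch beside the sparse cluster was the densest of the 4 areas, at 36.4, 27.8 and 28.9 peaks per Mb. Within each replicate the density of the short arm cluster was 0.269, 0.176 and 0.146 times that of the stretch (mean 0.197 ± 0.0642, SD, n = 3). On the long arm the order was the other way. The long arm stretch had 16.8, 12.02 and 12.6 peaks per Mb, and the cluster was 1.26, 1.36 and 1.27 times as dense (mean 1.30 ± 0.0589, SD, n = 3). Taken as a pair, the clusters had 0.623 ± 0.0393 times (SD, n = 3) the density of both stretches, which lay between the values of the arms.

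**Figure D1:**
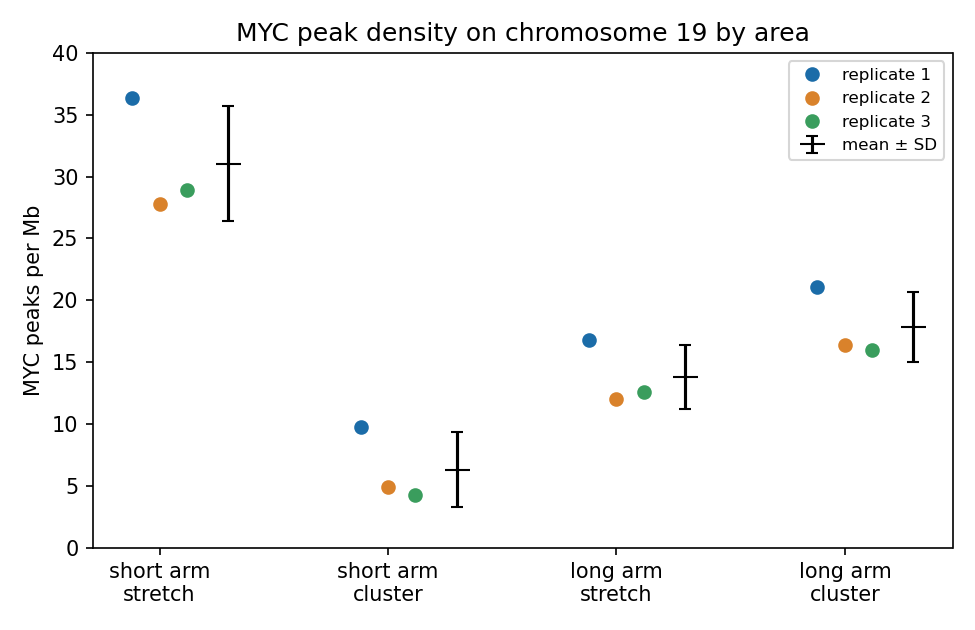
MYC peaks per Mb (vertical axis) in each of the 4 areas of chromosome 19, with a point for each replicate and the mean ± SD beside the points. The short arm cluster lies between 4.22 and 9.78 peaks per Mb, below all points of the other areas, while the long arm cluster lies above the long arm stretch in each replicate.

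Each contrast was tested within replicates with an exact two-sided sign-flip permutation test. This design of 3 libraries cannot give a p below 0.25. Both density contrasts by arm reached p = 0.25 (adjusted p = 0.395 over 30 contrasts, exact permutation test), with the same direction in 3 of 3 replicates. The cluster-to-stretch ratio itself was lower on the short arm than on the long arm in 3 of 3 replicates, by a factor of 0.153 ± 0.0537 (SD, n = 3; exact permutation test, p = 0.25, adjusted p = 0.30 over 6 differences).

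The sparse cluster was also short of strong peaks. A −log10 p of 20 or more was reached by 8, 2 and 2 peaks there in replicates 1, 2 and 3, against 331, 193 and 200 in the short arm stretch. These were 18.2%, 9.09% and 10.5% of the cluster's peaks and 46.0%, 35.0% and 34.9% of the stretch's. On the other chromosomes the share was 38.3%, 31.1% and 30.4%. Per Mb, such peaks were 0.106, 0.0456 and 0.0440 times as dense as in the stretch, a mean of 0.0653 ± 0.0355 (SD, n = 3). The long arm cluster held 68, 38 and 38 of them, which was 1.27 ± 0.0781 times (SD, n = 3) the density of its stretch. That was near its ratio for all peaks, 1.30. Their share of its peaks, 42.2%, 30.4% and 31.1%, was near that of its stretch, 43%, 30.4% and 32.3%. At 50 or more, the short arm cluster had 2 peaks in replicate 1, or 4.55% of its peaks, and none in the others. The long arm cluster had 28, 13 and 15, or 17.4%, 10.4% and 12.3% of its peaks.

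Set against the rest of the genome, the long arm cluster was dense, and so were both stretches. The short arm cluster differed from the other chromosomes by less than the spread between replicates. The other chromosomes had 7.93, 5.33 and 5.48 peaks per Mb, counted up to the last peak of each chromosome and without Y. The short arm cluster was at 1.23, 0.918 and 0.770 times this level, above it in replicate 1 and below it in replicates 2 and 3 (mean 0.974 ± 0.236, SD, n = 3). The long arm cluster was at 2.66, 3.08 and 2.92 times this level. It lay between the long arm stretch, at 2.12, 2.26 and 2.30 times, and the short arm stretch, at 4.58, 5.23 and 5.28 times. Of the other 22 chromosomes, none was as dense as the long arm cluster or the short arm stretch in any replicate. In each replicate 2 were denser than the long arm stretch, whereas 5, 10 and 16 were denser than the short arm cluster.

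Density was then followed in windows of 1 Mb that lay wholly inside an area. The short arm cluster had 4 such windows, and each was thin. From 20000001 to 21000000 there were 11, 8 and 6 peaks in replicates 1, 2 and 3 (mean 8.33 ± 2.52, SD, n = 3), the highest of the cluster. The windows from 21000001 to 22000000 and from 22000001 to 23000000 had a mean of 4 peaks each, with counts of 7, 2 and 3 and of 7, 3 and 2. The window from 23000001 to 24000000 had 12, 4 and 4.

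The long arm cluster varied more. Its thinnest window, from 52000001 to 53000000, had 10, 5 and 7 peaks (mean 7.33 ± 2.52, SD, n = 3), which was within the range of the short arm cluster. Its densest, from 58000001 to 59000000, had 34, 28 and 29 (mean 30.3 ± 3.21, SD, n = 3). The windows between them had means of 12.7, 16, 21, 24 and 14 in order of position.

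Low density was not particular to the clusters. Of the 19 windows of the short arm stretch, 18 had a higher mean than the densest window of the short arm cluster, and so had 17 of the 23 windows of the long arm stretch. The other 6 were as thin or thinner, down to 1 peak in each replicate from 29000001 to 30000000. The windows from 28000001 to 30000000 and from 31000001 to 33000000 had means of 2, 1, 2.67 and 2 in order of position. Such windows lower the density of the long arm stretch. The long arm ratio of cluster to stretch, 1.30, was not recomputed without them. At the other end, the window from 1000001 to 2000000 on the short arm held 79, 58 and 66 peaks. A pair of windows tied as the densest of the long arm stretch at a mean of 33.7, from 39000001 to 40000000 with 38, 30 and 33 peaks and from 41000001 to 42000000 with 36, 27 and 38.

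**Figure D2:**
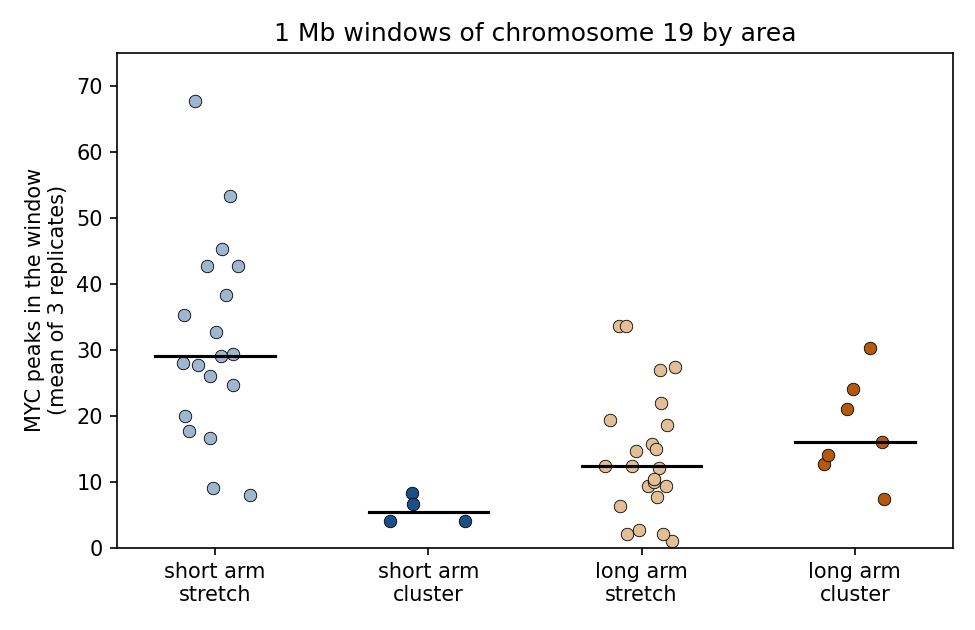
MYC peaks in each 1 Mb window (vertical axis, mean of 3 replicates) by area, with a point per window and a line at the median window. The 4 windows of the short arm cluster lie between 4 and 8.33 peaks, while the 7 of the long arm cluster spread from 7.33 to 30.3.

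Spacing was read from the same areas, so a wider typical distance follows largely from the lower density and is not a separate result. Neighbouring places, counted from the end of one to the start of the next, were a median of 52.95 kb apart in the short arm cluster. The median was 11.5 kb in the short arm stretch, 23.3 kb in the long arm stretch and 21.6 kb in the long arm cluster. In the short arm cluster 17 of the distances were over 100 kb, which was 37.8% of them, against 3.65% in its stretch and 9.88% in the long arm cluster. The widest run without a place in the short arm cluster was 597.6 kb, from 22588061 to 23185666. It rested on replicate 1, and in the lists of replicates 2 and 3 alone the widest run was 1022 kb and 1426 kb. In the long arm cluster the widest was 385 kb, from 57230150 to 57615309, and it was 445 kb, 598 kb and 660 kb in the single lists. In the short arm stretch the widest was 529 kb, from 5048631 to 5578039, and 529 kb, 719 kb and 646 kb in the single lists. The long arm stretch had one of 1398 kb from 28305830 to 29703646, empty in all 3 replicates. Within single lists the median distance was 70.1 kb, 159 kb and 116 kb in the short arm cluster and 25.04 kb, 21.5 kb and 23.3 kb in the long arm cluster.

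**Figure D3:**
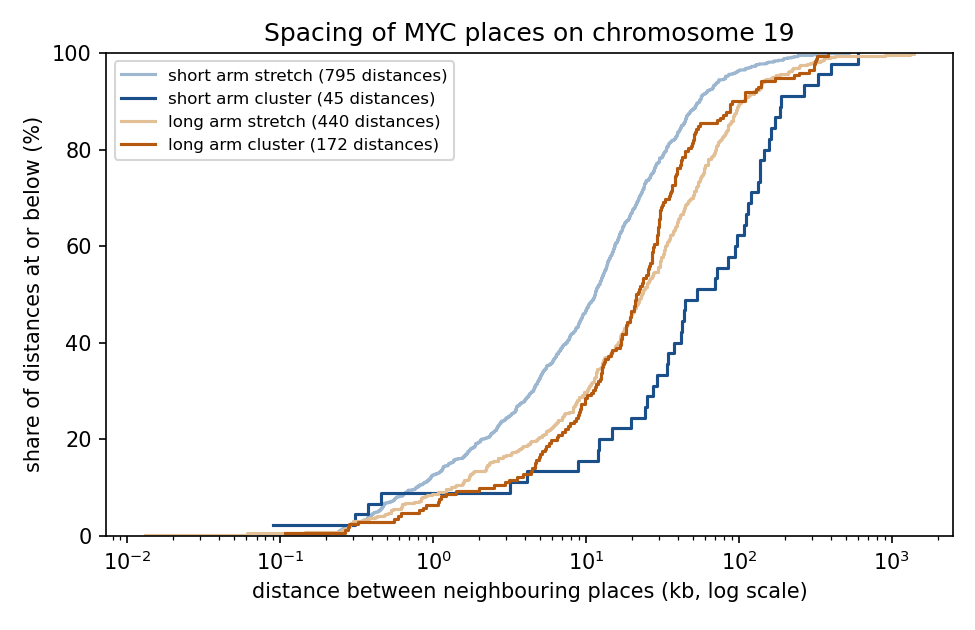
Share of distances between neighbouring merged places that are at or below a given length (horizontal axis in kb, log scale), with a line for each area. The line of the short arm cluster lies to the right of the others over most of its range, with a median of 52.95 kb against 11.5 to 23.3 kb.

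The second comparison asked how strong the peaks were. The deposited fold enrichment divides the fragments at the summit by those of the local background after adding 1 to each. The median fold of the short arm cluster was 3.42, 3.67 and 4.12 in replicates 1, 2 and 3. It was 4.32, 4.61 and 4.87 in the short arm stretch, 4.54, 4.82 and 4.96 in the long arm stretch, and 4.55, 4.53 and 5.04 in the long arm cluster. In each replicate the short arm cluster was the lowest of the 4 areas. It was also below the median of each of the other 22 chromosomes, the lowest of which were 3.60, 3.90 and 4.24.

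Within replicates, the median fold of the short arm cluster was 0.811 ± 0.0315 times (SD, n = 3) that of its stretch, and lower in 3 of 3 replicates (exact permutation test, p = 0.25, adjusted p = 0.395). The ratio on the long arm was 0.986 ± 0.0398 (SD, n = 3). It was below 1 in replicate 2 and above 1 in the others, a difference smaller than the spread between replicates. The 2 clusters together had a ratio of 0.974 ± 0.0332 (SD, n = 3) to both stretches, which was within the spread as well.

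The upper part of the distribution showed it more plainly. The upper quartile of fold in the short arm cluster was 4.31, 4.40 and 4.35, below the median of each other area in the same replicate. Its highest fold was 11.7, 8.16 and 7.68, against 23.2, 20.6 and 21.9 in the long arm cluster. These maxima were over 44, 22 and 19 peaks against 161, 125 and 122, and a maximum tends to rise with that number. A fold of at least 10 was reached by 2 peaks of the short arm cluster in replicate 1 and by none in the others. In the long arm cluster 19, 12 and 19 peaks did so, or 11.8%, 9.60% and 15.6% of its peaks. The share was 8.33%, 8.17% and 8.73% in the short arm stretch and 10.3%, 10.5% and 11.7% in the long arm stretch.

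**Figure D4:**
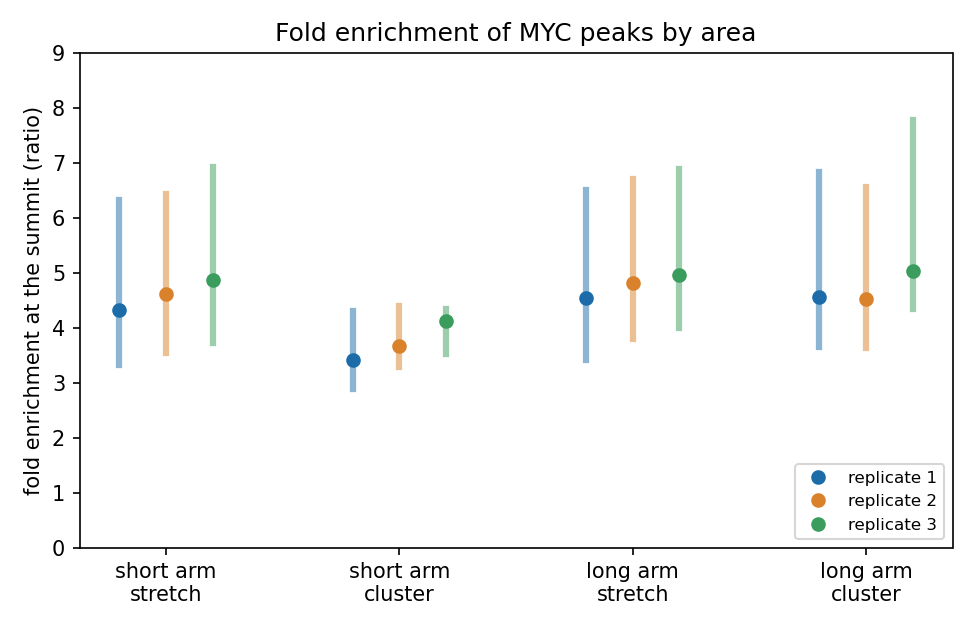
Fold enrichment at the summit (vertical axis, ratio) by area and replicate, with a point at the median and a bar from the lower to the upper quartile of the peaks. The medians of the short arm cluster, 3.42 to 4.12, are the lowest in each replicate, and those of the long arm cluster, 4.53 to 5.04, overlap the stretches.

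Fold depends on the background under the peak, so fragments and background were also compared. Both were recovered from the deposited fold and p-value. The median summit held 42.5, 30 and 28 fragments in the short arm cluster and 49, 37 and 33 in its stretch, a ratio of 0.842 ± 0.0288 (SD, n = 3). The median background, relative to the genome-wide level of the same list, was 1.40, 1.23 and 1.31 in the cluster and 1.42, 1.24 and 1.28 in the stretch. The ratio of these backgrounds was 1.00 ± 0.0201 (SD, n = 3), so on the short arm the fragments were fewer while the background differed by less than the spread between replicates.

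On the long arm the backgrounds were lower, at 1.16, 1.07 and 1.04 in the cluster and 1.10, 1.00 and 1.01 in the stretch. The ratio was 1.05 ± 0.0177 (SD, n = 3). Summits of the long arm cluster held 46, 32 and 31 fragments, which was 1.02 ± 0.0407 times (SD, n = 3) the number in its stretch. The background of the short arm cluster was 1.20 ± 0.0489 times (SD, n = 3) that of the long arm cluster, so between the clusters a sparser and weaker set of peaks lay on a higher background. The part of the background in that difference was not tested.

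No peak of the short arm cluster was at the genome-wide level of background. These counts were 0 of 44, 0 of 22 and 0 of 19 peaks. With 3 peaks taken as the limit of counting error for a count of 0, shares of up to 6.82%, 13.6% and 15.8% are allowed. Peaks along a chromosome are not independent, so these limits are approximate. In the short arm stretch 19.4%, 25.6% and 24.1% of peaks were at that level, and in the long arm cluster 18.01%, 32% and 36.1%. The share was 39.5%, 52.4% and 49% in the long arm stretch and 29.2%, 40.8% and 40.4% on the other chromosomes. The short arm stretch and the long arm cluster were thus also below the other chromosomes in each replicate.

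Width separated the areas less. The median peak of the short arm cluster was 560.5 bp, 436 bp and 424 bp wide, against 557.5 bp, 453 bp and 462 bp in its stretch (ratio 0.962 ± 0.0438, SD, n = 3). In the long arm cluster the medians were 608 bp, 427 bp and 482 bp, against 558 bp, 453 bp and 448.5 bp (ratio 1.04 ± 0.0809, SD, n = 3). Neither ratio had the same direction in all 3 replicates. The widest peak of the short arm cluster was 1392 bp, 933 bp and 804 bp, and that of the long arm cluster 2768 bp, 2491 bp and 2329 bp. The long arm cluster also had more peaks to draw a maximum from. Peaks covered 0.597%, 0.234% and 0.196% of the short arm cluster and 1.49%, 0.927% and 0.924% of the long arm cluster.

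The third comparison asked how often the replicates shared a peak. Of the 46 places in the short arm cluster, 13 had a peak in all 3 replicates, 13 in exactly 2 and 20 in 1. The share in all 3 was 28.3% (95% Wilson interval 17.3% to 42.5%). In the long arm cluster it was 93 of 173 places, or 53.8% (46.3% to 61.0%), in the short arm stretch 432 of 796, or 54.3% (50.8% to 57.7%), and in the long arm stretch 217 of 441, or 49.2% (44.6% to 53.9%). On the other chromosomes it was 11744 of 26345, or 44.6% (44.0% to 45.2%), lower than in these other areas. The interval of the short arm cluster lay below those of the other areas. The intervals cover counting error only, and places along a chromosome are not independent.

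**Figure D5:**
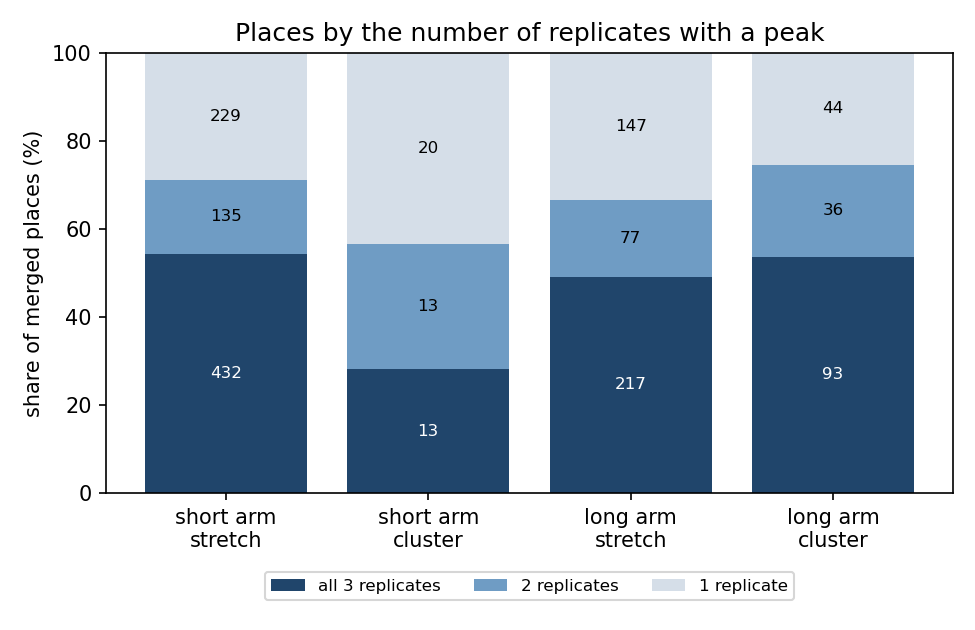
Share of merged places (vertical axis, %) with a peak in all 3, in 2 or in 1 replicate, by area, with the number of places printed in each part of a bar. In the short arm cluster 13 of 46 places are in all 3 replicates, against 93 of 173 in the long arm cluster.

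Replicate 1, the list with the most peaks, supplied most of the unshared places. Replicate 1 alone held 18 places of the short arm cluster, which was 39.1% of them, against 1 place each for replicates 2 and 3. The share was 18.5% in the long arm cluster, 19.8% in the short arm stretch, 24.9% in the long arm stretch and 28.1% on the other chromosomes. Within replicates 1, 2 and 3, 40.9%, 4.55% and 5.26% of the short arm cluster's peaks were in no other list. In its stretch these were 21.9%, 5.44% and 7.16%, so the cluster had the larger unshared part only in replicate 1. The short arm cluster had 2 times as many peaks in replicate 1 as in replicate 2, while the long arm cluster had 1.29 times, the short arm stretch 1.31 times, the long arm stretch 1.40 times and the other chromosomes 1.49 times as many. The genome-wide background level, which is expected to follow depth, was 7.79, 5.84 and 4.76 fragments in replicates 1, 2 and 3.

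Counted per list, 29.5%, 59.1% and 68.4% of the peaks of the short arm cluster had a counterpart in both other replicates, against 60.7%, 82.6% and 79.1% in its stretch. The difference was −21.8 ± 10.4 percentage points (SD, n = 3), with the cluster lower in 3 of 3 replicates (exact permutation test, p = 0.25, adjusted p = 0.395). It rested on which lists were used. With sharing counted over the remaining 2 lists, the mean difference was −17.0 points without replicate 1, −12.7 without replicate 2 and −8.95 without replicate 3. Without replicate 2 or 3, one of the remaining lists had the cluster above its stretch, by 3.81 and 2.71 points. On the long arm the shares were 58.4%, 79.2% and 81.1% in the cluster and 54.5%, 81.5% and 78% in the stretch, and the difference of 1.59 ± 3.36 points (SD, n = 3) was within the spread. Set against the other chromosomes, the difference of the short arm cluster was −20.7, −18.5 and −7.26 points (mean −15.5 ± 7.23, SD, n = 3).

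Sharing follows the strength of a peak, so it was also read within bands of −log10 p. Peaks with a −log10 p from 10 to 20 numbered 20, 8 and 9 in the short arm cluster, of which 5, 6 and 7 were at places found in all 3 replicates. These were 25%, 75% and 77.8%, against 44%, 88.9% and 84.9% in the short arm stretch and 41.9%, 78.4% and 85.96% in the long arm cluster. Below 10 the short arm cluster had 2 of 16, 5 of 12 and 4 of 8 peaks at such places, or 12.5%, 41.7% and 50%, against 16.5%, 56.2% and 50.8% in its stretch and 9.68%, 58.3% and 44.4% in the long arm cluster. From 20 to 50 it had 4 of 6, 2 of 2 and 2 of 2 peaks at such places, against 90.6%, 99.3% and 98.7% in its stretch. The short arm cluster was lower than its stretch in each replicate in the bands below 20, on 8 to 20 peaks of its own per band, but from 20 to 50 only in replicate 1. Below 10 it was lower than the long arm cluster only in replicate 2, and no test was made of any band. Weak peaks also made up more of it. Peaks with a −log10 p below 10 were 36.4%, 54.5% and 42.1% of the short arm cluster, 22.8%, 30.7% and 31.6% of its stretch and 19.3%, 28.8% and 22.1% of the long arm cluster.

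The strongest places were then listed for each area, ranked by the geometric mean of fold among places that each replicate shared. In the short arm cluster the first was from 19976433 to 19977074, with a fold of 11.7, 8.16 and 7.68 (mean 9.19 ± 2.21, SD, n = 3) on 132, 68 and 66 fragments. The second was from 19886792 to 19887992, with a fold of 10.2, 6.29 and 7.39 (mean 7.96 ± 2.02, SD, n = 3). Both lay less than 200 kb inside the boundary with the dense short arm stretch, at 176 kb and 86.8 kb. Of 755 places of chromosome 19 found in all 3 replicates, they ranked 130 and 185 by geometric mean fold.

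The next places on the list were weaker by the way it was ranked, and fold was not tested against position. A place nearer the boundary, from 20149958 to 20150551, had a fold of only 2.77, 3.14 and 3.95. The third, from 21511645 to 21512453, had a fold of 6.30, 5.33 and 5.66 (mean 5.76 ± 0.497, SD, n = 3), with 71, 40 and 39 fragments. The fourth, from 22034366 to 22035186, had a mean fold of 4.69 ± 0.542, and the fifth, from 23460855 to 23461362, one of 4.55 ± 0.190 (SD, n = 3). The mean folds of the last pair differed by less than the spread between replicates. The median geometric mean fold over the 13 places was 4.33, with a lowest value of 3.24.

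The strongest places of the long arm cluster were higher than any of these, though drawn from 93 places against 13. The first was from 56166223 to 56167420, with a fold of 21.7, 20.6 and 21.9 (mean 21.4 ± 0.690, SD, n = 3) on 230, 140 and 125 fragments, and its 3 summits lay within 2 bp. The second, from 57790943 to 57792485, had a fold of 23.2, 18.7 and 16.5 (mean 19.5 ± 3.43, SD, n = 3), and the third, from 59069865 to 59071459, one of 19.9, 17.5 and 17.1 (mean 18.2 ± 1.49, SD, n = 3). The order of the first and second was reversed in replicate 1. The fourth, from 56631526 to 56632254, had a mean fold of 17.7 ± 0.891, and the fifth, from 51611196 to 51612094, one of 15.6 ± 0.925 (SD, n = 3). These 5 places ranked from 14 to 32 among the 755. The median geometric mean fold over the 93 places of the long arm cluster was 5.56, against 5.77 over 217 in the long arm stretch and 5.48 over 432 in the short arm stretch.

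The strongest places of the chromosome were in the stretches. On the short arm the first was from 1863852 to 1865097 with a mean fold of 39.6 ± 6.77, followed by 10216664 to 10217565 at 38.3 ± 7.35 and 17970318 to 17971476 at 26.0 ± 3.11 (SD, n = 3). On the long arm the places from 36705073 to 36706503, from 41902878 to 41903883 and from 42363633 to 42365089 had mean folds of 31.9 ± 7.21, 28.1 ± 7.72 and 27.1 ± 3.09 (SD, n = 3). In each replicate the strongest place of either stretch was above the strongest of the short arm cluster by more than 3 times. The stretches also held more places to draw from, 432 and 217 against 13.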

How the data were processed

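The authors mapped reads to hg19 with Bowtie2 and called peaks per library with MACS2, keeping those under a q-value of 0.05. The sources used here do not name the MACS2 control, the treatment of duplicates or the versions run. The deposited lists give each peak's position, fold enrichment (a ratio with 1 added to both terms), −log10 p and −log10 q at the summit, and a score that follows the −log10 q. The authors did not scale values between lists, so areas were compared within a list.

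Summit fragments and background were recovered from the deposited fold and −log10 p under the Poisson distribution. A whole number of fragments within 0.001 of the −log10 p was found for 100% of peaks in each list. On 9953 simulated peaks 100% of fragment numbers were recovered, and in 4 simulated areas 100% of counts. The lowest background of a list was its genome-wide level, and backgrounds within 0.0005 of it in relative terms were counted as at that level. No read totals are in the lists, and depth was judged from this level alone.

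Peaks were assigned to areas by their summit, and none of the places fell into more than 1 area. Contrasts were formed within libraries and tested with an exact sign-flip permutation test (SciPy 1.17.1), with Benjamini-Hochberg adjustment. The named places were the 5 with the highest geometric mean fold in each cluster and the 3 in each stretch, the widest distances between places, and the windows with the highest and lowest mean. The areas, measures and settings were chosen with earlier results of these data known, and the values for peaks of −log10 p of 20 or more, the rest of the genome and the bands were added with the results in view. Alternatives were q-values of 0.01 and 0.001, equal numbers of peaks, assignment by midpoint, 500 kb left out at each boundary, each cluster or stretch alone, each replicate left out, and other definitions of fold and sharing. The planned count of zinc finger gene promoters with a place was not run, because the reference used here is of hg38.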

Additional observations from a re-analysis of the deposited data

Results flagged for a closer look

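Peak density went opposite ways on the 2 arms in every library when each cluster was set against the stretch of its own arm. The stretches themselves differed, the short arm one being 2.26 ± 0.0827 times (SD, n = 3) as dense as the long arm one. Against both stretches, the ratio was below 1 for either cluster, at 0.282 on the short arm and 0.825 on the long arm. Within arms, the cluster had a mean of 0.197 times the density of its stretch on the short arm and 1.30 times on the long arm. The ratio was below 1 in 3 of 3 replicates on the short arm and above 1 in 3 of 3 on the long arm. The difference between the arms had an exact permutation p of 0.25, the smallest that 3 libraries can give. Groups of 3 libraries are too small for a search for outlying samples, and none was made.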

How the results depend on the processing

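Each contrast of both clusters with both stretches was recomputed under other settings, 77 values in all, of which 57 moved by less than 1 SD over replicates and kept their direction. The cause of the changes below was not tested, beyond what the choice of area itself changes. The density ratio, 0.623, was 0.561 with 500 kb left out at each boundary, 0.282 for the short arm cluster alone, 0.825 for the long arm cluster alone, 0.434 against the short arm stretch alone and 0.979 against the long arm stretch alone. Leaving out single replicates gave 0.606 to 0.645. The fold ratio, 0.974, was 0.800 for the short arm cluster alone and turned to 1.01 for the long arm cluster alone, with 0.959 to 0.992 when single replicates were dropped. The width ratio, 1.02, turned to 0.954 with the boundaries left out, to 0.967 for the short arm cluster alone and to 0.981 without replicate 1. It ranged up to 1.05 when another replicate was left out. The difference in sharing, −3.85 points, was −20.8 for the short arm cluster alone. It turned to 0.798 when sharing by at least 2 lists was counted and to 1.04 without replicate 3, and was −3.57 to 1.04 over the replicates left out. The background ratio, 0.961, turned to 1.12 for the short arm cluster alone and to 1.09 against the long arm stretch alone, and was 0.861 against the short arm stretch alone. The ratio of fragments, 0.921, was 0.889 with the boundaries left out, 0.871 for the short arm cluster alone, 0.891 against the short arm stretch alone and 0.990 against the long arm stretch alone. With single replicates dropped the background ratio was 0.9498 to 0.981 and the ratio of fragments 0.913 to 0.937.

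By arm, the density ratio stayed below 1 on the short arm and above 1 on the long arm under both q-values, equal numbers of peaks, boundaries left out and each replicate left out. With the boundaries left out it was 0.139 and 1.17. The areas were compared within each library throughout. No paired analysis was possible because the shared replicate numbers join MYC to IgG libraries, and the IgG libraries were not analysed here. The promoter count and its alternatives were not run. A peak missing from a shallower list does not show that MYC was absent there.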

Other observations

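Summits of one place lay further apart between replicates in the short arm cluster than elsewhere on the chromosome. Over its 13 places found in all 3 replicates, the median distance was 54 bp for replicates 1 and 2, 89 bp for replicates 1 and 3 and 79 bp for replicates 2 and 3. Over the 93 places of the long arm cluster it was 35 bp, 45 bp and 41 bp, and over the 432 of the short arm stretch 29 bp, 32.5 bp and 37 bp. Over the 217 of the long arm stretch it was 28 bp, 37 bp and 30 bp. The medians of the short arm cluster rest on only 13 places, and these distances were not tested. The short arm cluster also had the weakest of these places, and the part of strength in the distance was not tested.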
